A study of Mus musculus with 23 samples.

Results

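Promoter peaks of the chromatin-bound splicing and transcription factor THRAP3 that were listed in Bmal1-/- β cells and not in wild-type (WT) β cells were collected and described with their genes. The peaks were chosen by the deposited peak lists themselves. A member is a peak of Bmal1-/- replicate 1 that overlaps a peak of Bmal1-/- replicate 2 by at least 1 bp, overlaps no peak of either WT replicate, and has its centre within 1 kb of an annotated transcription start site. Of the 12949 peaks of Bmal1-/- replicate 1, 4927 lay at a promoter, 2150 of those overlapped a peak of replicate 2, and 1601 of the 2150 had no overlapping WT peak. Those 1601 members were nearest to the start sites of 1579 genes. The other 549 promoter peaks, present in both Bmal1-/- replicates and in at least 1 WT replicate, are called shared peaks and serve as the comparison.

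All samples were β-TC6 cells, a mouse insulinoma line derived from transgenic C57BL/6 mice. WT cells carried no engineered mutation, and Bmal1-/- cells carried a CRISPR-Cas9 deletion of exon 8 of Bmal1, whose official symbol is Arntl. Each genotype had 2 THRAP3 immunoprecipitations from crosslinked cells, called over the input of that genotype, and 3 RNA libraries. A further 3 RNA libraries, of Clock-/- β-TC6 cells made by CRISPR-Cas9 and likewise grown from a picked colony, entered only the filter and the fit of expression. The Bmal1-/- line came from a hand-picked colony selected for neomycin resistance, so that the genotype and the history of that clone cannot be told apart.

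BMAL1 and CLOCK are bHLH-PAS proteins that bind DNA as a pair at E-box elements and drive transcription of their own repressors, the Per and Cry genes. THRAP3, a nuclear protein rich in serine and arginine, associates with splicing factors, with the Mediator complex and with CLOCK-BMAL1 on chromatin, and was named for its association with the thyroid hormone receptor. In pancreatic β cells the clock is known to time insulin secretion. A peak in these lists is a position where immunoprecipitated tags exceeded both the input and the surrounding DNA, and it can reflect direct DNA contact or contact through another protein or nascent RNA.

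The 4 lists stood apart in length, and this bears on every member. WT replicate 1 held 808 peaks and WT replicate 2 held 6128, against 12949 and 12226 in the Bmal1-/- replicates. The share of tags falling in peaks, given in the file headers as an approximate immunoprecipitation efficiency, was 0.11% and 0.76% in the WT replicates and 1.86% and 1.67% in the Bmal1-/- replicates. Total tags were alike, from 12296107 to 14961095. No value is listed for WT at a position where WT has no peak, so that lower occupancy and a weaker immunoprecipitation cannot be told apart, and no test of WT against Bmal1-/- occupancy was made. Without WT replicate 1 the count of members was 1611, and without WT replicate 2 it was 2044. Of the 1955 promoter peaks of WT replicate 2, 912 overlapped no peak of either Bmal1-/- replicate.

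Sequences of members that the results below turn on are shown first, read 5′ to 3′ on the strand of the gene from the RefSeq assembly GRCm38.p6, which has the mm10 coordinates of the peaks. Each is the longest part of the peak that no annotated exon covers. Arntl, the deleted gene itself, Ank, the member with the most tags, Narf, and Cask, which encodes a scaffold of the presynaptic and secretory machinery, are shown with the SP/KLF letters GGGCGG in capitals on either strand.
Arntl, chr7:113207281-113207464, plus strand: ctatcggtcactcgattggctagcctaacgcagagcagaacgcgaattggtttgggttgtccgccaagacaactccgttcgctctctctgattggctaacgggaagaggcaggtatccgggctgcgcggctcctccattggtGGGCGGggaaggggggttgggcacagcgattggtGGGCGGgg
Ank, chr15:27466165-27466413, plus strand: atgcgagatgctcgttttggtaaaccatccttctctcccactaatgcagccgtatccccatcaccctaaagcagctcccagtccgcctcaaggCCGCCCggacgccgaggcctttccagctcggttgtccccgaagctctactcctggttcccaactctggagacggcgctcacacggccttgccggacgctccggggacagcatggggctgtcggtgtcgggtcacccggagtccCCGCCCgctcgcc
Narf, chr11:121236659-121236907, plus strand: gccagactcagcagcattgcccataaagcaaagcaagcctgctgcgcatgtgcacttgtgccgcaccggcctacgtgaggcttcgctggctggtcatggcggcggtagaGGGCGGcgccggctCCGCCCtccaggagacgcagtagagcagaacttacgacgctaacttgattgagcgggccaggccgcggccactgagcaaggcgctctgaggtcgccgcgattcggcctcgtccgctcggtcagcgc
Cask, chrX:13846736-13846882, minus strand: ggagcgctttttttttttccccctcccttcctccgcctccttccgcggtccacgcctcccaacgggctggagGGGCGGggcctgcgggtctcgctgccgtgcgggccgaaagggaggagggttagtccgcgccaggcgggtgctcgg

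Cry1, a clock repressor, and Thrap3, which encodes the immunoprecipitated protein, are shown with the E-box CACGTG in capitals.
Cry1, chr10:85185065-85185128, minus strand: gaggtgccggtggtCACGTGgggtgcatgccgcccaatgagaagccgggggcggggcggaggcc
Thrap3, chr4:126202761-126202843, minus strand: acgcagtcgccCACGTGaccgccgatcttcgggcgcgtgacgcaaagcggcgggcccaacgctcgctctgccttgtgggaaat

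Pnrc1 and Cenpe hold the cyclic AMP response element TGACGTCA, Kifc1 the ETS letters CCGGAAG, and Kmt5a 4 copies of CCAAT, all in capitals.
Pnrc1, chr4:33247638-33247886, minus strand: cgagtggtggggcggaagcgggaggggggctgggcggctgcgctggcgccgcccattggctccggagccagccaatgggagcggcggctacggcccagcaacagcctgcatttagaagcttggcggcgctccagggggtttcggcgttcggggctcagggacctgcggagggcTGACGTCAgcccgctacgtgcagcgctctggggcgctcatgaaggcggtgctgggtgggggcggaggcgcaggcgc
Cenpe, chr3:135212403-135212536, plus strand: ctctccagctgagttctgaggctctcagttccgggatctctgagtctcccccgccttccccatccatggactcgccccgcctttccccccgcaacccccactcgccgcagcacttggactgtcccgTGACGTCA
Kifc1, chr17:33890662-33890876, minus strand: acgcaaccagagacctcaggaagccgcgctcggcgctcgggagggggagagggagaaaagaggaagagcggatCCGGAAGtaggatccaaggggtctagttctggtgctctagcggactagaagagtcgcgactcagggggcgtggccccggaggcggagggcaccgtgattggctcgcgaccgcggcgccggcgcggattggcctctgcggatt
Kmt5a, chr5:124439687-124439929, plus strand: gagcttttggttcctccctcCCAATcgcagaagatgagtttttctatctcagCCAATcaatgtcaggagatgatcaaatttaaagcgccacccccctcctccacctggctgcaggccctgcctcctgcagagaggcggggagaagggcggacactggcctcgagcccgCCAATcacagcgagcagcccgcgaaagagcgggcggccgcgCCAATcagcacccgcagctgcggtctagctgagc

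Spon2, the member gene with the largest rise in mRNA, is shown for contrast because its peak is poor in CG dinucleotides, the 4 of which are in capitals.
Spon2, chr5:33218898-33219146, minus strand: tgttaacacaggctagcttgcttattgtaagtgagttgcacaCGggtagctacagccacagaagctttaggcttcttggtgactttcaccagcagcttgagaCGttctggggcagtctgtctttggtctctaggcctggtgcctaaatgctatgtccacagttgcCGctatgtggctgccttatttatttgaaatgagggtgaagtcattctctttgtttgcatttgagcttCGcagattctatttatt

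Members were of modest height. Normalized tag counts, in tags per 10000000, had a median of 13.4 in Bmal1-/- replicate 1 (range 7.07 to 59.7) and 12.7 in replicate 2 (range 6.68 to 46.8). Shared promoter peaks had medians of 18.1 and 16.7 and reached 224.6 and 217.2. Enrichment of members over input had a median of 8.12-fold in replicate 1 and 7.93-fold in replicate 2. Because presence in a list depends on tags, these values belong to the choice of members and are given as a description. The ratio of replicate 1 to replicate 2 had a median of 1.09 over the members, and 13 of 1601 differed by more than 2-fold.

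**Figure D1:**
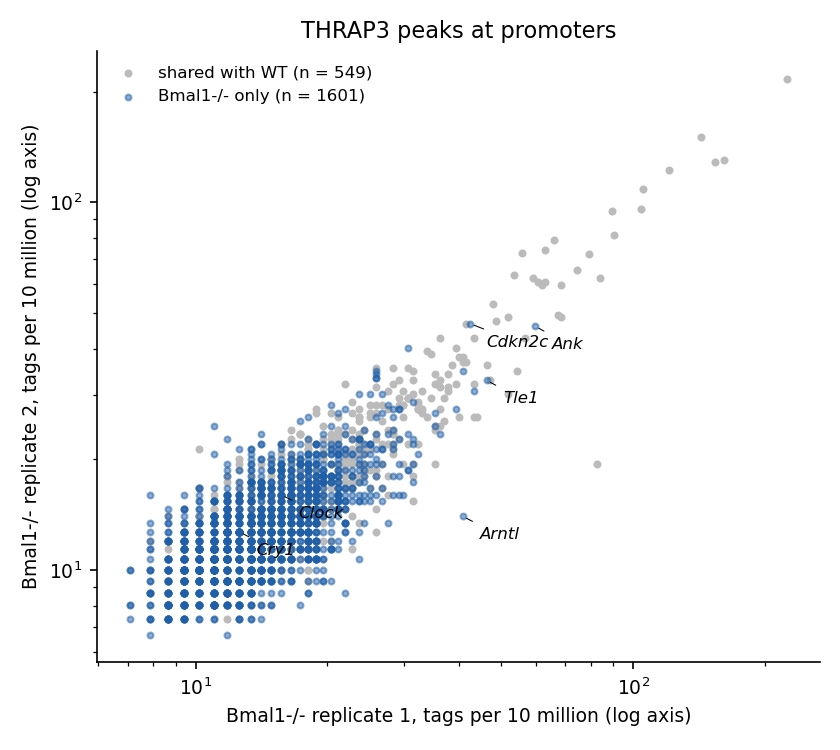
Normalized tag counts of promoter peaks in Bmal1-/- replicate 1 (x axis) and replicate 2 (y axis), in tags per 10000000 on log axes, with 1 point per peak for the 1601 peaks of Bmal1-/- only (blue) and the 549 peaks shared with WT (grey). Nearly all blue points lie in the lower part of the range, and the Arntl point lies off the diagonal.

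The member with the highest mean tags lay upstream of Ank, a membrane transporter of pyrophosphate, with 59.7 and 46.1 tags in replicates 1 and 2. Next by mean tags came a peak in an untranslated exon of Cdkn2c, the CDK4 and CDK6 inhibitor p18, with 42.4 and 46.8 tags, and a peak at Tle1, a Groucho-family corepressor, with 46.3 and 32.8. The other members of the leading 8 were at Tuba1c, an α-tubulin (40.8 and 34.8), 1700125G22Rik, a noncoding gene that shares its promoter with the cytokinesis factor Ect2 (43.2 and 30.7), Rfc4, a clamp loader subunit (30.6 and 40.1), Prss53, a serine protease (39.3 and 27.4), and Kmt5a, the histone H4 lysine 20 methyltransferase (35.3 and 26.7). The Rfc4 peak lay in a coding exon near the 3′ end of the gene, 574 bp from the start of an internal transcript. Another member, assigned to 6330408M09Rik, lay at the 5′ end of Rfc4 with 20.4 and 16.0 tags. The Arntl peak had 40.8 tags in replicate 1 and 14.0 in replicate 2, and its ratio of 2.91 was the highest of all members. Only 75 members (4.68%) had at least 20 tags in both replicates, against 153 shared peaks (27.9%).

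Absence from WT went with low tags. When the 2150 promoter peaks of both Bmal1-/- replicates were ranked by mean tags and divided into 5 classes, 399 of 437 (91.3%) of the lowest class had no overlapping WT peak, and the share in the next classes was 375 of 435 (86.2%), 324 of 420 (77.1%), 309 of 429 (72.0%) and 194 of 429 (45.2%). Both Bmal1-/- tag counts were above 10.1, the median of the peaks listed in WT replicate 2, for 1164 members (72.7%). The nearest WT peak centre was within 500 bp for 94 members (5.87%), and more than 10 kb away for 1361 (85.0%). For Tle1 it was closer than 500 bp, and for Ank it was not. It was also closer than 500 bp for Hdac5 (255 bp), Crem (292 bp), Edem1 (385 bp), Pnrc1 (481 bp) and Rfc4 (495 bp).

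**Figure D2:**
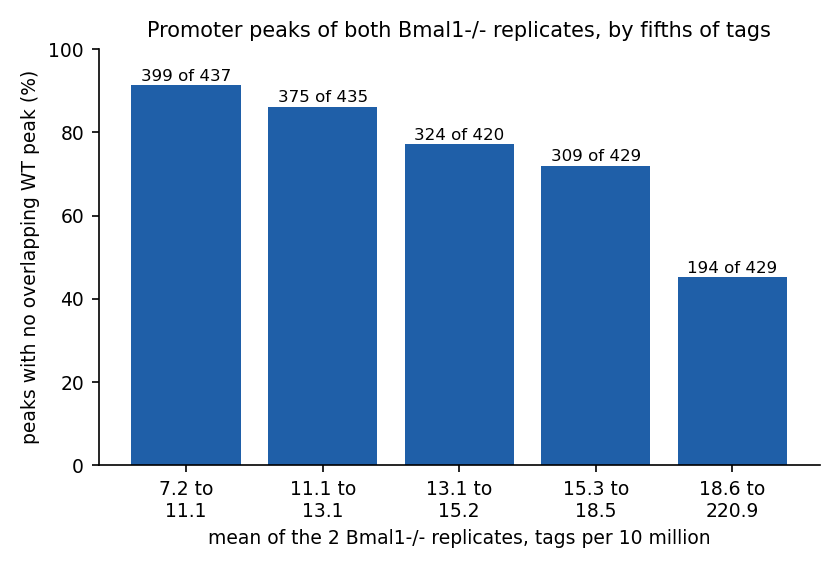
Share of promoter peaks with no overlapping WT peak (y axis, percent) in 5 classes of the mean normalized tag count of the 2 Bmal1-/- replicates (x axis, tags per 10000000), with the number of such peaks and of all peaks above each bar. The share runs from 91.3% in the lowest class to 45.2% in the highest.

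The limits of the rule cut through a continuous range. Just inside 1 kb lay peaks at Snx30 (977 bp from the start site, 16.5 and 12 tags) and Gm25099 (968 bp, 21.2 and 16.7 tags), and just outside lay peaks at Gm12514 (1012 bp, 10.2 and 11.4 tags) and Agap3 (1012 bp, 15.7 and 13.4 tags). Peaks at Ptpn21 and Kmt5b counted as shared through overlaps of 2 bp with a WT peak. Members at Cit and Yipf5 had a WT peak centred 237 and 243 bp away, and members at Zfp619 and Fnta overlapped the replicate 2 peak by 1 bp.

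Members sat on the start sites. The distance from a peak centre to the nearest start site had a median of 87 bp, 869 centres (54.3%) were within 100 bp and 1318 (82.3%) within 250 bp, although the rule allowed 1 kb. Shared promoter peaks had a median distance of 103 bp, with 49.2% within 100 bp. Centres were upstream of the start in 911 members, downstream in 677 and on it in 13. By GENCODE annotation, 555 centres lay between genes, 490 in an untranslated exon, 321 in an intron, 117 in a coding exon and 118 in an exon of a noncoding transcript. In 418 members (26.1%) start sites of more than 1 gene lay within 1 kb, and in 176 these were protein-coding genes on opposite strands. In shared peaks the counts were 138 and 53 of 549.

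Protein-coding genes were nearest to 1402 members (87.6%), compared with 438 shared peaks (79.8%). Long intergenic noncoding RNAs were nearest to 60 members and antisense transcripts to 35. Small RNA genes made up a further group, with 14 microRNA, 11 snRNA, 6 snoRNA and 1 scaRNA members. Several of those with the most tags, named after their values were seen, were the neighbouring snRNA genes Gm24407 (25.9 and 34.1 tags) and Gm24265 (26.7 and 30.1), the snRNA gene Gm22513 (18.8 and 20.7), Rnu2-10, a gene of the U2 splicing RNA (17.3 and 22.1), and Snord118, the U8 snoRNA needed for ribosomal RNA processing (29.8 and 16.0). The peak assigned to Gm28872 (23.6 and 30.1 tags) also lay within 1 kb of Rnu11, which encodes the U11 RNA of the minor spliceosome. Tags on small RNA genes with near-identical copies may come from any copy. Mir210 was assigned a peak 458 bp upstream, with 20.4 and 18 tags. In 18 genes there was more than 1 member peak, and in 4 there were 3.

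The DNA under the members was rich in GC. In windows of 300 bp around the peak centres the median GC content was 64.0% for members, 61.3% for shared promoter peaks, 52.7% for 32817 RefSeq promoters of the same length and 45.3% for the 2520 peaks of Bmal1-/- only that lay away from promoters. The ratio of observed to predicted CG dinucleotides had medians of 0.82, 0.80, 0.38 and 0.23 in the same order. The Cask, Pnrc1 and Narf sequences above are of this kind, and the Spon2 sequence, with a GC content of 45.4% in the 249 bp shown, is not. The RefSeq windows ran from 250 bp before the start to 50 bp after it, and were taken whatever the expression of the gene. Member windows were instead centred on the peaks. The part of window placement and of expression in differences from RefSeq promoters, here and for the motifs below, was not tested.

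Exact matches to 10 motifs were searched for on both strands of those windows. The SP/KLF letters GGGCGG were the most frequent, in 1053 members (65.8%), against 55.6% of shared peaks and 35.6% of all RefSeq promoters. The ETS letters CCGGAAG were in 269 members (16.8%), against 13.5% and 8.86%. The E-box CACGTG, which reads the same on both strands and is the element that CLOCK and BMAL1 bind, was in 169 members (10.6%), in 11.1% of shared peaks and in 7.15% of all promoters. The cyclic AMP response element TGACGTCA was in 3.25%, 2.91% and 1.79%, the NRF1 core GCATGCGC in 3.75%, 3.83% and 2.71%, the YY1 core AAGATGGC in 3.56%, 2.91% and 2.74%, and the Kaiso core CTCGCGAG in 2.75%, 2.37% and 0.920%. The CCAAT box was about as frequent in members (35.1%) as in all promoters (37.4%), and TATAAA was rarer (5.18% and 13.6%).

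Members and shared peaks stood furthest apart, relative to their size, in the AP-1 letters TGACTCA, which begin like the cyclic AMP response element but cannot be the same match. They were in 56 members (3.50%) and in 64 shared promoter peaks (11.7%), and all RefSeq promoters held them in 5.20%. Bmal1-/--only peaks away from promoters held them in 12.1%. In windows of 200 bp the shares were 2.56% for members and 10.2% for shared peaks. A match is a description of the letters in the window, and nothing was tested about binding of any factor. Of the members, 226 (14.1%) held none of the 10 motifs. Median tags, averaged over the replicates, were 13.4 with an E-box and 13.25 without, 13.55 with GGGCGG and 12.7 without, and 14.475 with TGACTCA and 13.2 without.

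**Figure D3:**
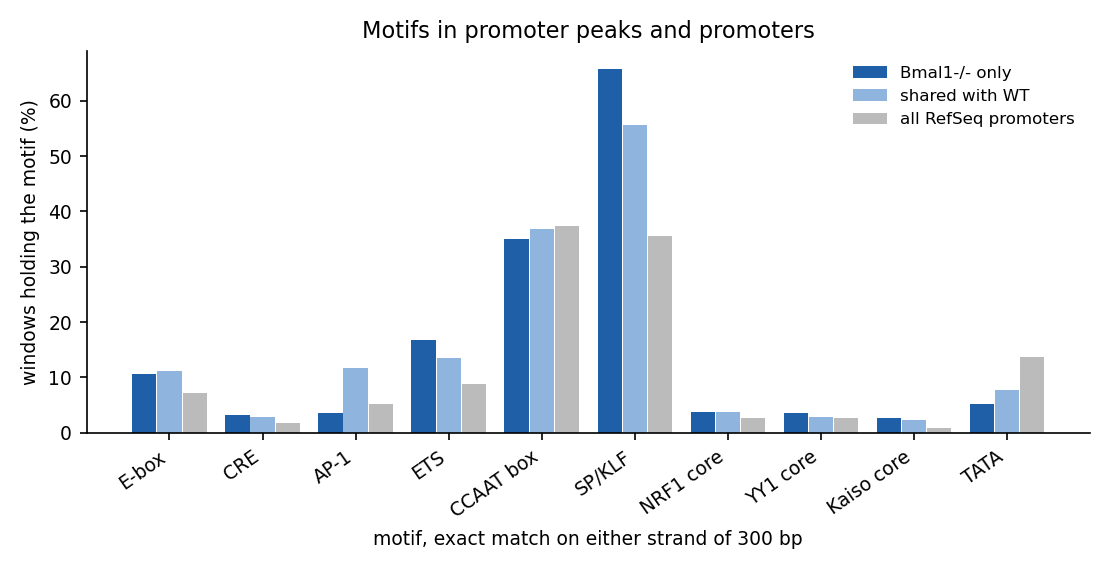
Share of 300 bp windows holding an exact match to each motif on either strand (y axis, percent) in the 1601 peaks of Bmal1-/- only (dark blue), the 549 shared promoter peaks (light blue) and 32817 RefSeq promoters (grey). GGGCGG is in 65.8% of the first, 55.6% of the second and 35.6% of the third, and TGACTCA in 3.50%, 11.7% and 5.20%.

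Genes of the members were mostly expressed in β cells of either genotype. Of the 1579 genes, 1478 were in the table of TPM, a level per transcript length that sums to the same total in each library, and 101 were not analysed further. Median expression over these genes was 26.95 TPM in WT and 28.5 TPM in Bmal1-/- cells, compared with 6.36 and 5.61 TPM over all 20599 genes. In Bmal1-/- cells 1258 (85.1%) had at least 5 TPM, against 51.2% of all genes. Genes of shared peaks gave similar levels, with medians of 28.8 and 29.2 TPM. The share of genes that carried a member rose with expression, from 1.09% of genes under 1 TPM to 4.05% between 1 and 5, 9.48% between 5 and 20, 13.1% between 20 and 100 and 13.3% above 100 TPM. When members were divided into 4 classes of tags, those in the lowest belonged to genes with a median of 17.7 TPM in Bmal1-/- cells, and those in the highest to genes with a median of 41.7 TPM.

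The next comparison was whether the mRNA of these genes differed between Bmal1-/- and WT cells. RNA values took no part in the choice of members. Start sites of every annotated transcript counted, also those that begin inside a gene, whereas TPM was 1 value for the whole gene. Differences are given as log2(TPM + 1) from limma, fitted to all genes that reached 1 TPM in at least 3 of 9 libraries, and a gene was called when its Benjamini-Hochberg adjusted p was below 0.01 and its log2 fold change beyond 1. Of the 1478 genes, 1420 passed the filter and 58 did not. Of the 1420, 62 (4.37%) were called higher in Bmal1-/- cells, beside 3.83% of all 15031 genes tested, and 51 (3.59%) were called lower, beside 7.97%. Values of the 3 WT and 3 Bmal1-/- libraries did not overlap for any of the 113 called genes, which the call itself nearly ensures, so this is no further support. At an adjusted p below 0.01 alone, 338 (23.8%) rose and 268 (18.9%) fell, beside 18.4% and 21.0% of all genes tested, and 814 (57.3%) did neither. Of 469 tested genes that had a shared peak and no member, 22.2% rose, 20.3% fell and 57.6% did neither. Of these 469, 2.77% were called higher and 6.82% lower. The median log2 fold change was 0.04 over the member genes and -0.04 over all genes tested. The log2 fold change lay within 0.5 of 0 for 927 of 1420 member genes (65.3%), beside 60.8% of all genes tested and 63.5% of the genes of shared peaks.

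**Figure D4:**
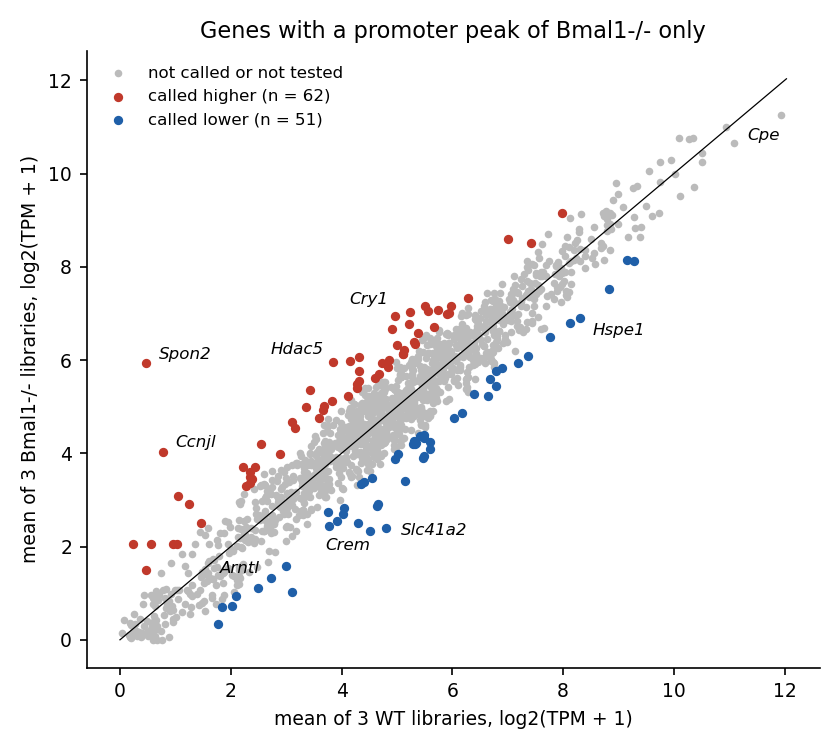
Mean expression of each gene with a promoter peak of Bmal1-/- only in 3 WT libraries (x axis) and 3 Bmal1-/- libraries (y axis), as log2(TPM + 1), with 1 point per gene and the line of equality. Red points are the 62 genes called higher in Bmal1-/- cells, blue points the 51 called lower, and grey points the rest.

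The same counts were taken within classes of expression level. Between 1 and 5 TPM, 14.9% of all genes tested were called lower, and 8 member genes (5.97%). Between 5 and 20 TPM these shares were 7.90% and 3.49%, between 20 and 100 TPM 4.54% and 3.37%, and above 100 TPM 4.35% and 3.23%. Shares called higher, of all genes and of member genes in turn, were 4.04% and 5.97% between 1 and 5 TPM, 3.98% and 3.76% between 5 and 20, 4.34% and 5.36% between 20 and 100, and 3.01% and 2.02% above 100 TPM. In the 4 classes of rising member tags the median log2 fold change was 0.05, 0.04, 0.0034 and 0.07.

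Chromosome 11 held 18 of the 62 genes called higher and none of those called lower, and chromosome 1 held 9 of the 51 called lower. These chromosomes shifted as a whole, with median log2 fold changes of 0.35 over 1201 tested genes of chromosome 11 and -0.35 over 932 of chromosome 1, and with 10.2% of all tested genes of chromosome 11 called higher and 14.4% of those of chromosome 1 called lower. With the chromosome median subtracted from each library, a choice made after seeing the data, 59 member genes were called higher, 9 of them on chromosome 11, and 43 lower, 3 of them on chromosome 1. These were of 1420 member genes tested, and of all 15031 genes tested 583 were called higher and 1090 lower. Without chromosome 11, 44 of 1292 member genes (3.41%) were called higher, beside 3.28% of all. Without chromosome 1, 42 of 1347 member genes (3.12%) were called lower, beside 7.55% of all. The share of promoter peaks absent from WT was 76.3% on chromosome 11 and 65.1% on chromosome 1, and over 20 chromosomes it ran from 65.1% to 83.5%. The part of gene copy number in these shifts was not tested.

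The gene with the largest rise was Spon2, a secreted extracellular matrix protein. It was at 0.323, 0.347 and 0.495 TPM in WT and at 62.0, 59.7 and 59.1 TPM in Bmal1-/- cells (log2 fold change 5.46 ± 0.12 SE). All WT values were below 1 TPM, so Spon2 passed the filter only through the Bmal1-/- libraries. For that reason no p-value is given. Spon2 was tested in only 3 of the fits that each left out a library. Its peak lay 567 bp upstream of the start with 12.6 and 16.0 tags. Ccnjl, a cyclin-like gene on chromosome 11, went from 0.514, 1.10 and 0.525 TPM to 15.4, 14.6 and 16.1 TPM (3.27 ± 0.15). Hdac5, a class IIa histone deacetylase, went from 14.0, 13.8 and 12.3 TPM to 65.8, 55.5 and 61.4 TPM (2.11 ± 0.10, adjusted p = 2.5e-07). Hdac5 is on chromosome 11 as well, and its value was 1.75 after subtraction of the chromosome median. The related Hdac9 on chromosome 12 rose from 1.36 ± 0.155 to 6.48 ± 0.215 TPM (mean ± SD, n = 3). The Hdac5 and Hdac9 peaks lay in introns at internal starts, away from the 5′ end of each annotated gene.

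Other leading rises were Slc25a13, the mitochondrial aspartate-glutamate carrier, with a log2 fold change of 2.04 from 1.06 ± 0.21 TPM in WT to 7.42 ± 0.51 TPM, Narf, a nuclear prelamin A-binding protein, with 1.93 from 9.83 ± 0.19 to 40.3 ± 2.5 TPM, Nrep with 1.82 from 16.7 ± 0.43 to 62.0 ± 9.2 TPM, and Pnrc1, a nuclear receptor coactivator, with 1.78 from 36.9 ± 0.30 to 129 ± 11 TPM. Narf was at 1.57 after subtraction of the chromosome 11 median. The Pnrc1 peak had 23.6 and 22.7 tags and holds the cyclic AMP response element shown above. Zfp395, a zinc finger protein, rose from 9.22 ± 0.88 to 30.7 ± 1.4 TPM. The Slc25a13 peak lay in an intron at an internal start, away from the 5′ end of the gene. Tags of the peaks assigned to the 8 genes with the largest rises ran from 8.64 to 23.6 in replicate 1, around the median of all members.

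The largest fall was in Slc41a2, a magnesium transporter, at 28.0, 27.1 and 25.6 TPM in WT and 4.03, 4.28 and 4.40 TPM in Bmal1-/- cells (log2 fold change -2.41 ± 0.10, adjusted p = 8.0e-08). Kcnh1, a voltage-gated potassium channel on chromosome 1, went from 22.7, 21.7 and 20.9 TPM to 4.54, 3.42 and 4.11 TPM (-2.19 ± 0.17). After subtraction of the chromosome median the value for Kcnh1 was -1.84. Crem, a transcription factor of the cyclic AMP pathway, was at 19.0, 18.2 and 18.9 TPM in WT and at 5.55, 4.55 and 4.05 TPM in Bmal1-/- cells (-1.79 ± 0.11, adjusted p = 1.0e-06). Pde10a and Pde1c, phosphodiesterases that break down cyclic nucleotides, fell by 1.76 and 1.73 on the log2 scale, from 24.0 ± 2.4 to 6.36 ± 0.25 TPM and from 34.2 ± 4.2 to 9.57 ± 1.16 TPM. The remaining leading falls were 1700019D03Rik (-2.08), Tmem150a (-1.76) and Snhg5, a host gene of snoRNAs (-1.60). In each, the libraries of WT lay above those of Bmal1-/-. The peaks of Pde10a, Pde1c and 1700019D03Rik lay at internal starts, away from the 5′ end of each annotated gene.

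The core clock held 7 member genes of 27 on a list of clock genes, a share of 25.9% where 10.9% of the 12321 protein-coding genes tested and 6.30% of all annotated protein-coding genes carried a member. The list was chosen with results of these data known, so that the share is a description. Of the 7, 6 are named here, Csnk1d and Tef only after their values were seen. They are both activators, the repressor Cry1, Ciart, which inhibits the CLOCK-BMAL1 pair, the kinase gene Csnk1d, which acts on PER proteins, and Tef, a PAR bZIP output factor. Of these 7, 2 rose, 1 fell and 4 did not pass the test, while of the 24 listed clock genes that were tested 9 rose and 6 fell.

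Cry1 rose from 34.4, 29.8 and 26.9 TPM in WT to 116.9, 124.6 and 122.9 TPM in Bmal1-/- cells (log2 fold change 1.97 ± 0.11, adjusted p = 5.9e-07), and every Bmal1-/- library was above every WT library. Its peak was near the median of all members, at 12.6 and 12.7 tags, with its centre 60 bp downstream of the start. Csnk1d rose from 103 ± 4.6 to 155 ± 5.2 TPM (0.58 ± 0.08, adjusted p = 1.4e-04), and this chromosome 11 gene was at 0.22 after subtraction of the chromosome median (adjusted p = 0.0054). Ciart was at 9.05, 8.23 and 9.44 TPM in WT and 4.30, 6.73 and 5.24 TPM in Bmal1-/- cells (-0.64 ± 0.15, adjusted p = 0.0044), and of 6 fits that each left out a library it passed only in the fit without Bmal1-/- replicate 2 (-0.78). The Ciart peak was low, at 9.42 and 10 tags, and a WT peak was centred 327 bp from it.

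Arntl was at 3.63, 3.52 and 4.22 TPM in WT and 3.52, 3.32 and 3.41 TPM in Bmal1-/- cells, a log2 difference of -0.11 ± 0.15 (adjusted p = 0.54). Because these values sum the whole gene and the deletion removed exon 8, they do not check the deletion. Clock was at 49.7, 46.7 and 40.9 TPM in WT and 30.9, 35.2 and 36.5 TPM in Bmal1-/- cells (-0.41 ± 0.16, adjusted p = 0.054). All 3 Bmal1-/- values of Clock were below all 3 WT values although the gene missed the threshold. Tef had -0.24 ± 0.10, with an adjusted p of 0.069. Thrap3 itself, at 81.9 ± 8.0 TPM in WT and 79.6 ± 1.7 TPM in Bmal1-/- cells, differed by -0.04 ± 0.15 on the log2 scale (adjusted p = 0.85), and its promoter peak had 15.7 and 16.7 tags.

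**Figure D5:**
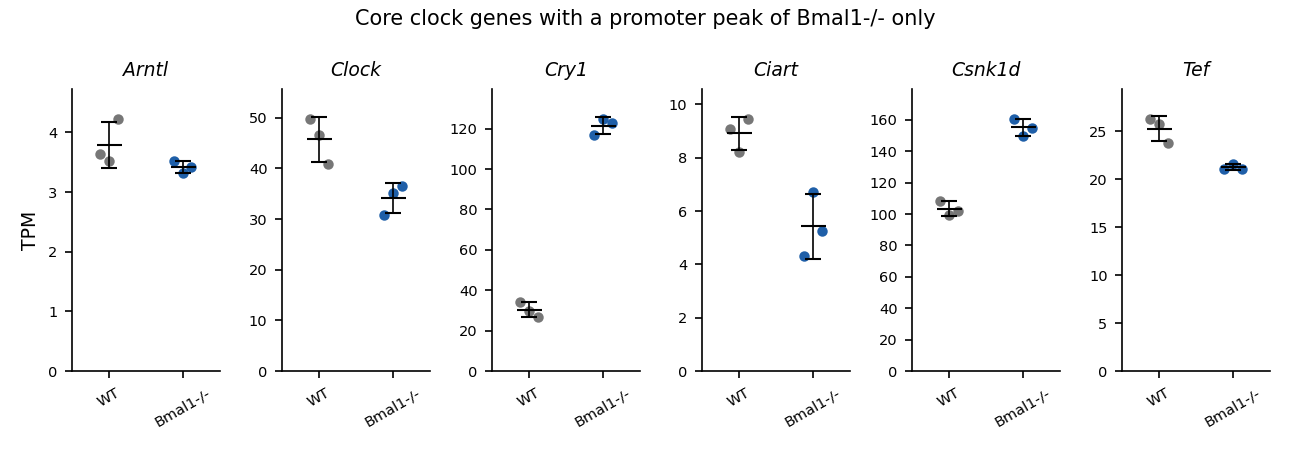
Expression in TPM (y axis, each panel from 0 on its own scale) of 6 core clock genes with a promoter peak of Bmal1-/- only, with 1 point per library and the mean ± SD of 3 WT and 3 Bmal1-/- libraries. Cry1 and Csnk1d are higher in all 3 Bmal1-/- libraries than in any WT library, and the Arntl values overlap.

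Lists of RNA processing genes were described next. SR proteins and hnRNPs, which set splice site choice, had 10 members of 50 genes, of which 2 rose and 2 fell, while over all 50 genes 4 rose and 15 fell, with a median log2 fold change of -0.19. Pcbp2 rose from 506, 522 and 466 TPM to 843, 923 and 890 TPM (0.83 ± 0.09) and Raly from 164 ± 6.2 to 244 ± 14 TPM (0.57 ± 0.06). Hnrnpa3 fell from 264 ± 25 to 178 ± 7.9 TPM (-0.56) and Srsf11 from 104 ± 5.1 to 72.1 ± 6.9 TPM (-0.53). Core spliceosome genes had 10 members of 82, with Dhx8, a helicase that releases the spliced mRNA, at 0.66 and Cwc27 at -0.61. Dhx8, on chromosome 11, was at 0.30 after subtraction of the chromosome median. RNA helicases and decay factors had 8 of 88 (9.09%), and Ddx50, a nucleolar helicase, fell from 297, 273 and 260 TPM to 103, 116 and 110 TPM (-1.33 ± 0.07).

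Ribosome biogenesis factors had 8 members of 61 (13.1%), of which 6 fell and none rose, with a median log2 fold change of -0.56 over the 8. Rrp9 passed in 2 of 6 fits that each left out a library, those without WT replicate 2 and without Bmal1-/- replicate 1, and Gar1 did not pass after subtraction of its chromosome median (adjusted p = 0.015). Rrp1 was at 0.28 ± 0.08 (adjusted p = 0.011). Over all 61 genes of that list 22 fell and 5 rose, with a median of -0.20. Wdr43 and Wdr75, factors of the small subunit processome, fell by 0.84 and 0.80 on the log2 scale, and Wdr75, on chromosome 1, was at -0.46 after subtraction of the chromosome median. Nop56, a box C/D snoRNP protein, fell from 101, 95.8 and 90.5 TPM to 58.3, 58.8 and 63.0 TPM, and Npm1, the nucleolar protein nucleophosmin, from 892, 835 and 810 TPM to 527, 609 and 582 TPM. Npm1 is on chromosome 11, against the direction of that chromosome. Cytosolic ribosomal proteins had 13 members of 84 (15.5%), and of the 13, 2 rose, 2 fell and 9 did not pass. The examples with the largest values were Rpl26 at 0.58 and Rps18 at -0.53, and Rpl26 did not pass after subtraction of its chromosome median (0.23, adjusted p = 0.29). Of 6 fits that each left out a library, Rpl26 passed in 1, the fit without WT replicate 3, and Rps18 in 3, losing the call without WT replicate 3, Bmal1-/- replicate 2 or Bmal1-/- replicate 3 (adjusted p up to 0.0159). Rps19, the other fall, passed in none of the 6 (adjusted p from 0.0112 to 0.0336) and not after subtraction of its chromosome median (adjusted p = 0.017). Ribosomal protein mRNAs have near-identical pseudogene copies, so that their levels are uncertain. Translation factors had 7 members of 72, with Etf1, the release factor eRF1, at -0.68 and Eif4b at 0.53.

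Chromatin regulators had 15 members of 149 genes (10.1%), of which 14 were tested, 7 rose and 1 fell. Their median log2 fold change was 0.49, and over all 139 tested genes of the list it was 0.25, with 40 rising and 7 falling. When a library was left out, the rises of Arid1a and Rbbp4 each passed in 1 of 6 fits, without WT replicate 1 and without Bmal1-/- replicate 1 respectively, and the fall of Smarca5 passed in 4 of 6, not without WT replicate 1 or Bmal1-/- replicate 1. Rbbp4 also did not pass after subtraction of its chromosome median (adjusted p = 0.023). Hdac5 and Hdac9 gave the largest values, and Kmt5a, whose peak was among the leading 8, rose from 34.9, 33.1 and 29.1 TPM to 51.1, 51.2 and 49.97 TPM (0.64 ± 0.09). Histone genes had 6 of 80, and the variants H2afv and H2afz rose by 0.99 and 0.41 on the log2 scale, to 418 ± 25 and 1734 ± 16.5 TPM. H2afv, on chromosome 11, was at 0.63 after subtraction of the chromosome median. Zinc finger genes had 35 of 486 (7.20%), with 12 rising and 2 falling of 34 tested, beside 97 rising and 35 falling of 403 tested on the list.

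The cell cycle and replication list had the highest share after the core clock and the SR and hnRNP group, with 29 members of 166 (17.5%). Shared promoter peaks were at 6.02% of that list, 3.70% of the core clock and 6.00% of the SR and hnRNP group. They were at 12.3% of the nuclear pore and transport list and 0% of cytosolic ribosomal proteins, beside 1.93% of all protein-coding genes. The members of the cell cycle list are described next. That list was broad. It held the kinesins Kif12, Kif13b and Kif1b, which are not taken here as cell cycle genes. It also held Cdc40, which was on the core spliceosome list as well. These members included Cenpe, a mitotic kinesin, with 30.6 and 18.7 tags. Kifc1, a minus-end kinesin outside the cell cycle list, had 26.7 tags in each replicate. Of the 29, 7 rose, 3 fell and 19 did not pass, beside 39 rising and 19 falling of 153 tested on the list. Mcm7, a rise, passed only without WT replicate 1 and Cdc7, a fall, only without Bmal1-/- replicate 2, among 6 fits that each left out a library. Kif12 fell from 154, 145 and 132 TPM to 56.4, 61.3 and 63.1 TPM (-1.24 ± 0.09). Anapc11, a subunit of the anaphase-promoting complex, rose from 60.4 ± 1.2 to 129 ± 4.2 TPM and Kif18b from 33.7 ± 2.1 to 69.5 ± 2.8 TPM, both on chromosome 11 and at 0.72 and 0.67 after subtraction of its median. Kif13b was called at 1.17 ± 0.27 (adjusted p = 0.0046) and passed in none of 6 fits that each left out a library (adjusted p from 0.0101 to 0.0183). The value of Cenpe was -0.47 ± 0.16 (adjusted p = 0.032) and that of Kifc1 0.07 ± 0.07.

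The secretory genes were described in the same way. SNARE and exocytosis genes had 4 members of 96 (4.17%), Cask, Cdk5, Erc1 and Rimbp2, and Cask fell from 47.7, 45.6 and 40.4 TPM to 26.7, 28.4 and 29.1 TPM (-0.65 ± 0.13, adjusted p = 0.0020). Without WT replicate 1 the adjusted p of Cask was 0.0101. The Cask peak was low, with 8.64 and 8.02 tags. Cdk5, a kinase active in β-cell secretion and named after its value was seen, fell by 0.29 on the log2 scale. β-cell identity and secretion genes had 3 of 39 (7.69%), Cpe, Rfx6 and Cacna1c. Cpe, the carboxypeptidase that trims proinsulin, was the most abundant mRNA of all member genes and fell from 4072, 3837 and 3815 TPM to 2421, 2354 and 2523 TPM (-0.68 ± 0.06). Rfx6, a β-cell transcription factor, had -0.48 ± 0.15 (adjusted p = 0.020). None of the 10 β-cell markers checked was a member gene. Membrane traffic genes had 33 members of 253, with 8 rising and 4 falling of 32 tested, while over the list 48 rose and 53 fell of 234 tested. Rab33b, a Golgi GTPase, fell from 43.9 ± 4.8 to 20.04 ± 1.8 TPM (-1.09).

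Chaperone and unfolded protein response genes had 13 members of 118, of which 3 rose and 4 fell. Hspe1, the mitochondrial co-chaperonin, fell from 306, 289 and 352 TPM to 104, 128 and 124 TPM (-1.40 ± 0.13, adjusted p = 1.5e-05), and on this chromosome 1 gene the value was -1.06 after subtraction of the chromosome median. Edem1, which targets misfolded glycoproteins for degradation, fell from 102 ± 9.75 to 47.4 ± 3.3 TPM (-1.09). Over the whole list 50 of 104 tested genes fell and 11 rose. Nuclear genes of oxidative phosphorylation had 6 members of 94 (6.38%), and none of the 6 rose or fell. Ubiquitin genes had 37 of 327 (11.3%), with 9 rising and 5 falling of 35 tested, beside 65 and 35 of 243 tested on the list, and no ETS factor gene of 28 carried a member.

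Of the remaining lists, the nuclear pore and transport group had 9 members of 57 (15.8%), snoRNA host and noncoding RNA genes 9 of 195 (4.62%), lysosome and autophagy genes 9 of 92 (9.78%), DNA repair genes 8 of 75 (10.7%), RNA polymerase and general transcription genes 15 members, bZIP factors 4 of 51 (7.84%) and bHLH factors 3 of 40 (7.50%). Mitochondrial ribosomal proteins had 4 of 78 (5.13%), tRNA synthetases 4 of 35 (11.4%), mitochondrial import and fission genes 4 of 40 and the proteasome 3 of 50 (6.00%). Of the 1579 member genes, 1269 were on none of the 29 lists.

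Both directions of mRNA difference occurred among the leading peaks. Ank fell from 228, 228 and 223 TPM to 152, 159 and 159 TPM (-0.53 ± 0.09, adjusted p = 0.0010), with a value of -0.28 after subtraction of the chromosome 15 median. Cdkn2c rose from 979, 979 and 985 TPM to 1251, 1244 and 1277 TPM (0.36 ± 0.05) and Tuba1c from 150.1 ± 2.9 to 213 ± 9.9 TPM (0.50 ± 0.07), the latter at 0.75 after subtraction of the chromosome 15 median. Tle1 (0.12 ± 0.08), Rfc4 (-0.03 ± 0.09) and Prss53 (0.03 ± 0.07) did not pass the test. Among the 6 most abundant mRNAs of member genes, Cpe fell, H2afz and Bsg rose, by 0.41 and 0.48 on the log2 scale, and Mrfap1 (0.06), Mt1 (-0.42, adjusted p = 0.023) and Rps3a1 (-0.06) did not pass.

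The mRNA differences were also set out by motif, as a description. Of the 156 tested genes with an E-box in the window, 40 (25.6%) rose and 27 (17.3%) fell, with a median log2 fold change of 0.05, beside 23.8% and 18.9% of all tested member genes. Among genes with the Kaiso core, 6 of 42 rose and 15 fell (35.7%), with a median of -0.18, the lowest of the 10 motifs. Those with GGGCGG gave 24.8% and 18.9%. Nudt9, a nucleotide hydrolase whose E-box peak had 28.3 and 24.1 tags, rose from 31.1, 31.4 and 31.0 TPM to 61.1, 54.4 and 53.3 TPM (0.83 ± 0.07).

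The RNA libraries were of β-cell type. All 10 β-cell markers were above 1 TPM in both genotypes, with summed levels of 57123 to 59802 TPM in WT and 41704 to 45306 TPM in Bmal1-/- libraries. The sums were mostly Ins2 (means of 28266 TPM in WT and 20000 TPM in Bmal1-/- cells) and Iapp (22115 and 15383 TPM). Mafa, Slc2a2 and Pcsk1 were also lower in every Bmal1-/- library than in any WT library, and Pdx1, Nkx6-1 and Nkx2-2 were higher. Libraries of the genotypes overlapped for Ins1 (means of 2307 TPM in WT and 2361 TPM in Bmal1-/- cells) and Chga (3870 and 3427 TPM). The acinar marker Cela1 was at 8.04 TPM in WT and 1.69 TPM in Bmal1-/- cells. The 3 measured markers of α, δ and PP cells summed to 557 to 576 TPM in WT and 67.6 to 76.2 TPM in Bmal1-/- cells, those of stroma and blood stayed under 1 TPM, and the part of this difference in the results above was not tested.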

How the data were processed

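THRAP3 ChIP-seq of WT and Bmal1-/- β-TC6 cells and poly(A) RNA-seq of WT, Bmal1-/- and Clock-/- cells were used. Of 23 samples in the series, the eCLIP and input samples were not analysed here. The authors aligned ChIP reads to mm10 with Bowtie2 (2.2.4) and called peaks with HOMER for each immunoprecipitation over the input of its genotype. The deposited lists give a normalized tag count, a signal in tags per 10000000, a peak score, and a ratio (fold) over input and over the surrounding 10 kb, each at least 4. RNA reads were aligned by the authors with STAR (2.5.0) and counted with featureCounts (1.5.3), and the deposited table holds TPM. Read depth is not kept in TPM. Deposited tables of the authors' DESeq2 fold changes and p-values were not used.

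Peak overlaps, motifs and summaries were computed in Python (3.11.15) with pysam (0.24.0), with start sites from GENCODE. Expression was tested with limma (3.58.1, R 4.3.3) on log2(TPM + 1), with a mean-variance trend, all 9 RNA libraries in 1 fit, genes of at least 1 TPM in at least 3 libraries, and Benjamini-Hochberg adjustment over all genes tested. Fold changes on this scale understate the change of low genes. RNA was taken from 3 wells per genotype, which nothing states to be separate cultures, so p-values measure the spread between these samples, which may be technical. The scripts were tested on simulated data.

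Named genes were the 8 peaks with the highest mean tags, the 8 largest called rises and falls with groups apart and at least 5 TPM in the higher group, the 6 highest TPM, 2 genes per list, the peaks next to the 1 kb limit, Arntl, Clock, Thrap3 and 2 peaks per motif. Further members of 6 lists, and the genes said so in the text, were added after their values were seen. Members and lists were chosen with earlier results of these data known. The values of 1 clock gene are not reported here.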

Additional observations from a re-analysis of the deposited data

How the results depend on the processing

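The number of peaks depended most on the replicates. It was 1601 as defined, 1026 with peaks in the upper part of the score range, and from 1611 (without WT replicate 1) to 4071 (without Bmal1-/- replicate 2) when a replicate was left out, with 2044 without WT replicate 2 and 3406 without Bmal1-/- replicate 1. Other overlap, window and start site settings gave 1256 to 1740. Genes called higher numbered 54 to 66 and genes called lower 47 to 61 when an RNA library was left out, and 56 to 72 and 43 to 71 under the other settings. The median log2 fold change ran from 0.0081 to 0.0675 when a library was left out, the highest without WT replicate 1. With the replicate number as a replicate block the counts were 62 and 51. Same-numbered libraries correlated at -0.208 to 0.0742 and others at -0.163 to 0.212, so the numbers do not pair them. Over 157 named genes and 2351 values under alternatives, 2192 kept direction and side of the threshold, 105 lost and 54 gained the call, and 0 reversed. In windows of 200 bp the E-box share was 7.37% and that of GGGCGG 54.3%. The shorter lists and lower immunoprecipitation efficiency of WT limit what absence from them can show.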
